A study of Bos taurus with 42 samples.

Results

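Transfer RNA genes are transcribed by RNA polymerase III as precursors with extra bases at both ends. RNase P cuts off the 5′ leader and RNase Z (ELAC2) cuts off the 3′ trailer, so a leader or trailer marks the making of a tRNA rather than the breakdown of a finished one. Trailers end in the run of uridines that stops the polymerase, and in human cells some of them (tRF-1 fragments) are kept as separate small RNAs. The sequences described here are those whose first annotation in the deposited table is a trailer (tRF-1) or a leader (tRF-leader) of a tRNA precursor and carries no Ensembl transcript name. There were 338 of them among 12345 listed small non-coding RNA sequences, 311 trailers and 27 leaders. The annotation names each by the number of its tRNA gene (#4060, for example), so the amino acid carried is not known, and the table holds no base sequence, so none is printed and the position of a fragment in its precursor was not checked. The names trailer and leader thus rest on the annotation, and whether these sequences arose from the making of tRNA was not tested.

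The study sequenced RNA under 200 nt on an Ion Proton from bovine embryos made by somatic cell nuclear transfer (NT, cloning) and by in vitro fertilisation (IVF). NT embryos were 2-cell stages (day 2, 4 libraries), 8-cell stages (day 3, 4), morulae (day 6, 3) and blastocysts (day 8, 4), with 3 libraries of cells cultured from NT blastocysts (NT blastocyst-derived cells). IVF embryos had 4 libraries of 2-cell stages, 3 of 8-cell stages, 4 of morulae and 3 of blastocysts, and IVF blastocyst-derived cells had 4. Ear fibroblasts of 1 Brahma Spanish bull cross (3 libraries) were the nuclear donors, used at passages 4-5 after serum starvation and fused to metaphase II oocytes whose chromosomes had been removed, and IVF used semen of a Holstein bull. In vitro matured oocytes (3 libraries) complete the series. Embryos of both kinds were cultured on cumulus cells in SOFaa medium and pooled by 20. NT embryos thus carry the nuclear genome of 1 bull, and IVF embryos those of the Holstein bull and of the oocytes. The 2 kinds differ in nuclear genome as well as in method, and these cannot be told apart. The labels give 4 pools in one place and 3 in another and do not tie pools to animals, so p-values measure the spread between these libraries.

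Reads of the listed sequences ranged over the libraries from 25119 to 3081186, with a median of 608571.5. Values below are recovered reads, reads divided by the authors' size factor (normalised reads), or percent of a library's listed reads. Every one of the 12345 sequences was found in NT 2-cell replicate 4, so a trailer present only in other libraries is not listed. IVF morula replicates 1 and 3 stand apart. Replicate 1 held 0.143% piRNA and replicate 3 held 14.7%, against 74.4% to 80.5% in the other two. Summed CPM (reads scaled to a common total of listed reads) of the marker lists were 13093 for fibroblast and mesenchymal miRNAs (5 of 5 present) and 9157 for epithelial miRNAs (only 2 of 5 matched a listed sequence, both present) in IVF morula replicate 1. The sum for cumulus and granulosa miRNAs was 62841 there (4 of 5 present), of which miR-21-5p made 53034 and miR-503-5p 9791, while miR-202-5p was at 12.7, miR-132-3p at 2.55 and miR-212-3p at 0. In fibroblasts the epithelial sum was between 0 and 0.694. In blastocyst-derived cells the epithelial sum ranged from 6547 to 12708 in NT and from 0 to 15418 in IVF libraries. The cumulus list summed to 56075 to 189804 over both kinds, again mostly miR-21-5p. Its other members did not move together: miR-202-5p averaged 0.455 CPM in NT and 156 in IVF derived cells, against 399 in oocytes and 6345 in fibroblasts.

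The 338 sequences overlap in origin. A sequence lists at most 3 matches: 120 listed 1, 64 listed 2 and 154 listed 3, and 6 trailers listed a leader as a further match. Together they named 258 gene numbers, 236 with trailers, 29 with leaders and 7 with both. Through shared numbers 220 sequences formed a single linked block, and 57 shared no number with another, so the counts below are of sequences and not of independent genes. Leaders were mostly assigned to 1 gene (23 of 27), trailers mostly to several (214 of 311). In all, 18 also matched a predicted transcript (GENSCAN). The median sequence was found in 17 of 42 libraries, 39 were found in fewer than 5, and 334 (308 trailers, 26 leaders) passed the filter and were tested.

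Most trailers and leaders followed 1 of 2 patterns, set by the cultured cells. The 10 libraries of cultured cells (fibroblasts and blastocyst-derived cells) each held only 648 to 1345 of the 12345 listed sequences, and 27 to 68 of the 9474 piRNA sequences. Absence there is thus common in the table and not particular to trailers and leaders. In these libraries 318 of the 338, among them 25 of 27 leaders, had no read, and 6 trailers were found in all 10. The 6 were #4060, #3727, #3650, #3370, #248 and #225, each assigned to 1 gene. Another 14 appeared in some cultured libraries, 12 of them numbered and with 2 to 9 reads per library where found (38 reads in all). This split was made after the values were seen and from the cultured cells themselves, so levels in those cells are given below as a description. Apart from 2 sequences with Ensembl gene names, it left 330 numbered trailers (304) and leaders (26). The 330 do not all move alike: trailer #4030, 1 of them, had no read in oocytes and was higher in IVF blastocysts.

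**Figure D1:**
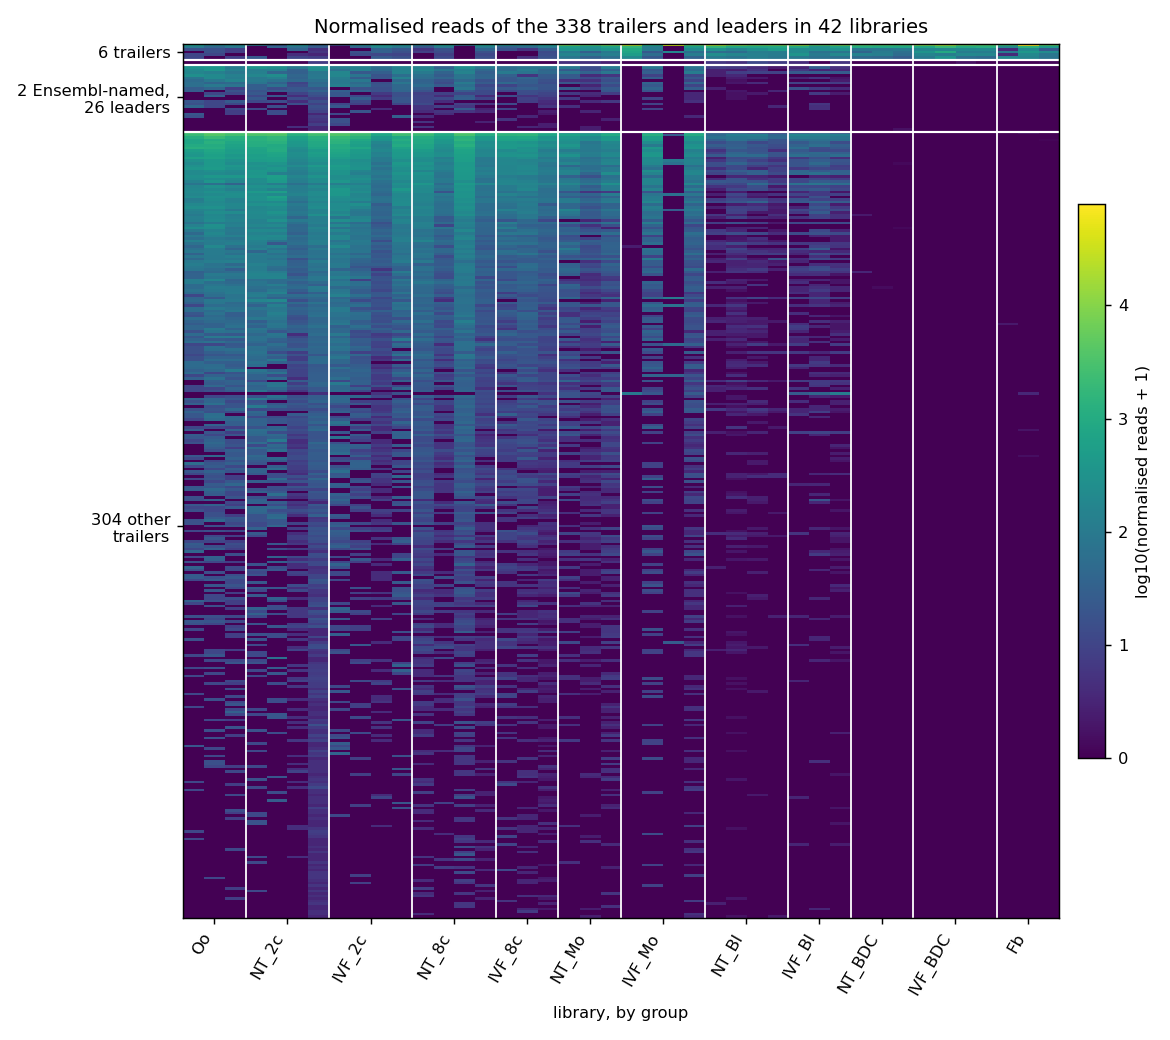
Normalised reads (log10 of the value plus 1, colour) of the 338 trailers and leaders (lines down the page) in the 42 libraries (columns, by group: Oo oocytes, 2c and 8c 2-cell and 8-cell embryos, Mo morulae, Bl blastocysts, BDC blastocyst-derived cells, Fb fibroblasts). The 6 trailers at the top brighten towards blastocysts and cultured cells, while the 304 other trailers and the leaders are bright in oocytes and early embryos, dim in blastocysts and almost empty in blastocyst-derived cells and fibroblasts; IVF morula replicates 1 and 3 are also nearly empty of these.

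The 330 numbered trailers and leaders made up about 1% of listed reads through the NT morula and less in blastocysts. Their share was 1.32 ± 0.16% in oocytes (SD, n = 3), 1.34 ± 0.10% in NT and 1.20 ± 0.10% in IVF 2-cell embryos, and 1.21 ± 0.19% in NT and 1.05 ± 0.08% in IVF 8-cell embryos. It was 1.03 ± 0.32% in NT morulae and 0.311 ± 0.114% in NT blastocysts, and 0.438 ± 0.103% in IVF blastocysts. In IVF morulae replicates 2 and 4 held 1.13% to 1.18%, replicate 3 held 0.179% and replicate 1 held 0.0394%. Every blastocyst library (0.193% to 0.532%) lay below every oocyte, 2-cell and 8-cell library (0.982% to 1.46%). Among cultured cells, IVF blastocyst-derived cells had 0 reads of the 330 in 4 of 4 libraries, NT blastocyst-derived cells had 3 to 9 reads and fibroblasts 2 to 16. In these pooled samples, fewer cells of a type and less RNA per cell cannot be told apart.

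**Figure D2:**
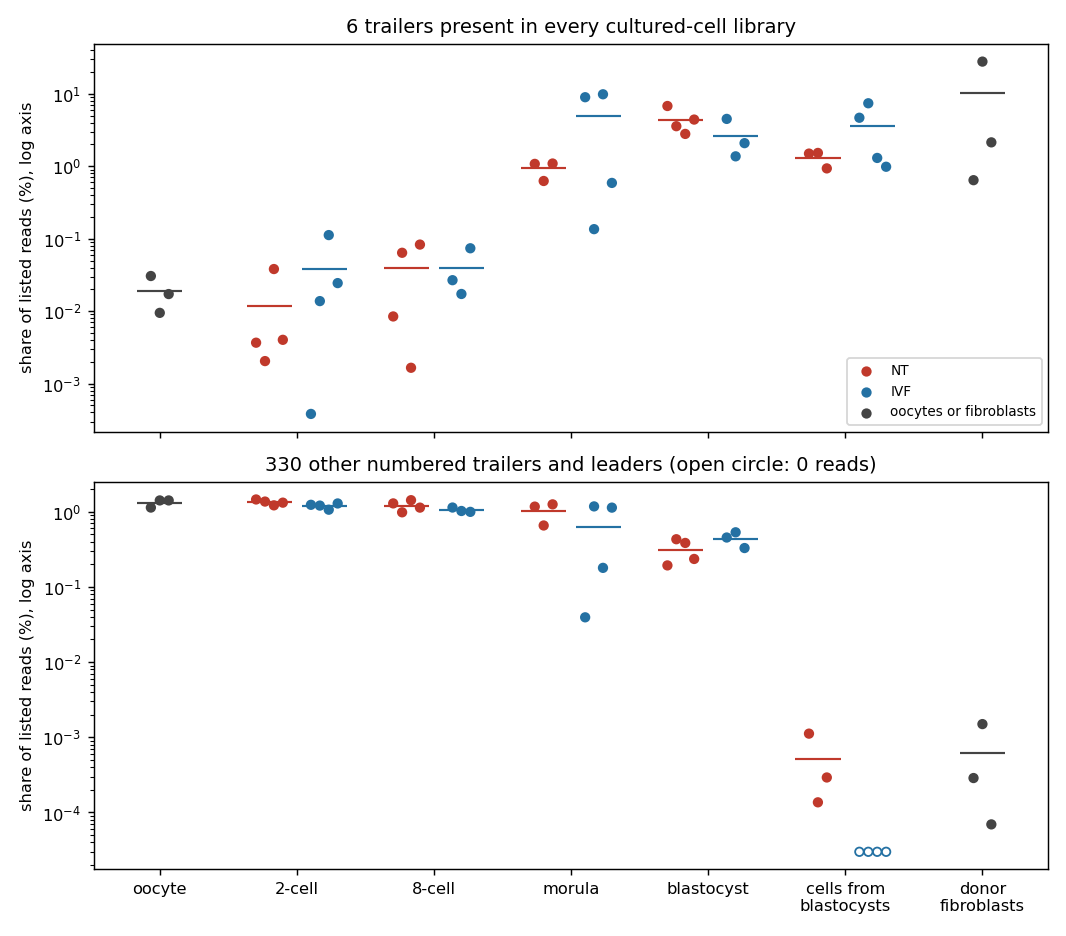
Share of listed reads (%, log axis) of the 6 trailers found in every cultured-cell library (top) and of the 330 other numbered trailers and leaders (bottom), 1 point per library, with group means as lines and open circles for 0 reads. The 6 stand between 2.79% and 6.78% in NT and between 1.37% and 4.50% in IVF blastocysts, against 0.0095% to 0.0306% in oocytes; the 330 stand at 0.193% to 0.532% in blastocysts, against 1.14% to 1.41% in oocytes.

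The fall ran alongside that of piRNAs, the small RNAs bound by PIWI proteins that make up most listed reads of bovine oocytes. piRNAs took 89.9% of listed reads in oocytes, 20.8% in NT blastocysts and 27.5% in IVF blastocysts (means). Per 100 piRNA reads, the 330 had 1.25 to 1.82 reads in each of the 30 oocyte and embryo libraries other than IVF morula replicates 1 and 3 (mean 1.49 ± 0.13). Group means lay between 1.41 ± 0.06 in IVF 2-cell embryos and 1.61 ± 0.21 in NT morulae, with 1.49 ± 0.08 in NT blastocysts, 1.60 ± 0.20 in IVF blastocysts and 1.47 ± 0.18 in oocytes. The ratio thus differed between stages by no more than about the spread between libraries of a stage. IVF morula replicate 3 stood at 1.22. Replicate 1 stood at 27.5, but on 309 reads, 305 of them of trailer #4030, and 1125 piRNA reads. The ratio was not kept in IVF blastocyst-derived cells, which had no read of the 330 beside 1414 to 4566 piRNA reads. Fibroblasts had 3403 to 9566 and NT derived cells 486 to 2127 piRNA reads, beside the few reads of the 330 given above. This denominator was chosen after the data were seen, and since both classes share the libraries and the size factors, the steady ratio is a description. The 469 other fragments of numbered genomic tRNAs (those not annotated as trailer or leader) did not keep such a ratio: they had 210 ± 103 reads per 100 piRNA reads in NT blastocysts, 164 ± 91 in IVF blastocysts and 2.53 ± 1.70 in oocytes.

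**Figure D3:**
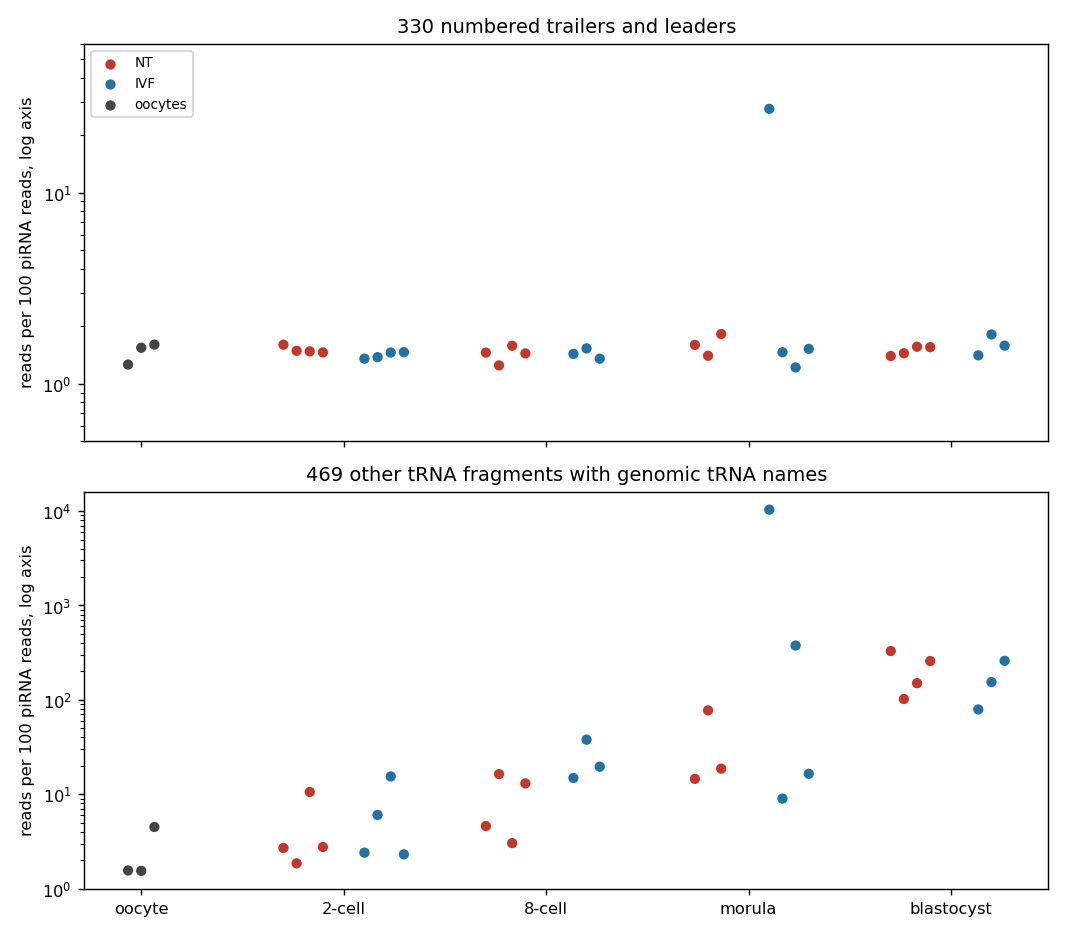
Reads per 100 piRNA reads (log axes) in each oocyte and embryo library, for the 330 numbered trailers and leaders (top) and for 469 other tRNA fragments (bottom). The upper points stay between 1.22 and 1.82 apart from IVF morula replicate 1 at 27.5, while the lower points range from 1.54 in an oocyte library to 329 in an NT blastocyst library among libraries other than IVF morula replicates 1 and 3.

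Blastocysts were set against oocytes sequence by sequence (limma on the deposited log2 values, Benjamini-Hochberg over 12039 sequences, threshold 0.05). In NT blastocysts 8 trailers and leaders were higher than in oocytes, where 1.91% of all sequences tested were, and 173 of 334 were lower, where 38.5% of all were. In IVF blastocysts 7 were higher and 157 lower, against 1.49% and 33.9% of all sequences tested. The 326 tested numbered sequences supplied every lower call in both comparisons, 14 of 26 leaders among them in NT and 12 in IVF blastocysts. All 6 trailers of cultured cells were higher in NT blastocysts, and 5 of 6 in IVF blastocysts. The other higher calls were both Ensembl-named sequences in NT, and 1 of these and trailer #4030 in IVF blastocysts. Of 451 other tRNA fragments, 81 were higher and 70 lower in NT blastocysts, and 68 higher and 62 lower in IVF blastocysts. These comparisons use the same 3 oocyte libraries.

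The number of lower calls depends on the scaling. The median change of all sequences was -0.87 in NT and -0.86 in IVF blastocysts on the log2 scale, and 0.69 and 0.70 once each library was centred on its median. The trailers and leaders had medians of -1.81 in NT and -1.67 in IVF blastocysts, and of -0.26 and -0.11 after centring, which shifts all sequences of a library alike. After centring, 35 were called higher and 73 lower in NT blastocysts, and 12 higher and 36 lower in IVF blastocysts. With only the compared groups in the fit, the calls were 9 higher and 142 lower in NT, and 8 higher and 139 lower in IVF blastocysts. The shares of all sequences called under these 2 settings are not given here, so these counts have no background beside them.

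**Figure D4:**
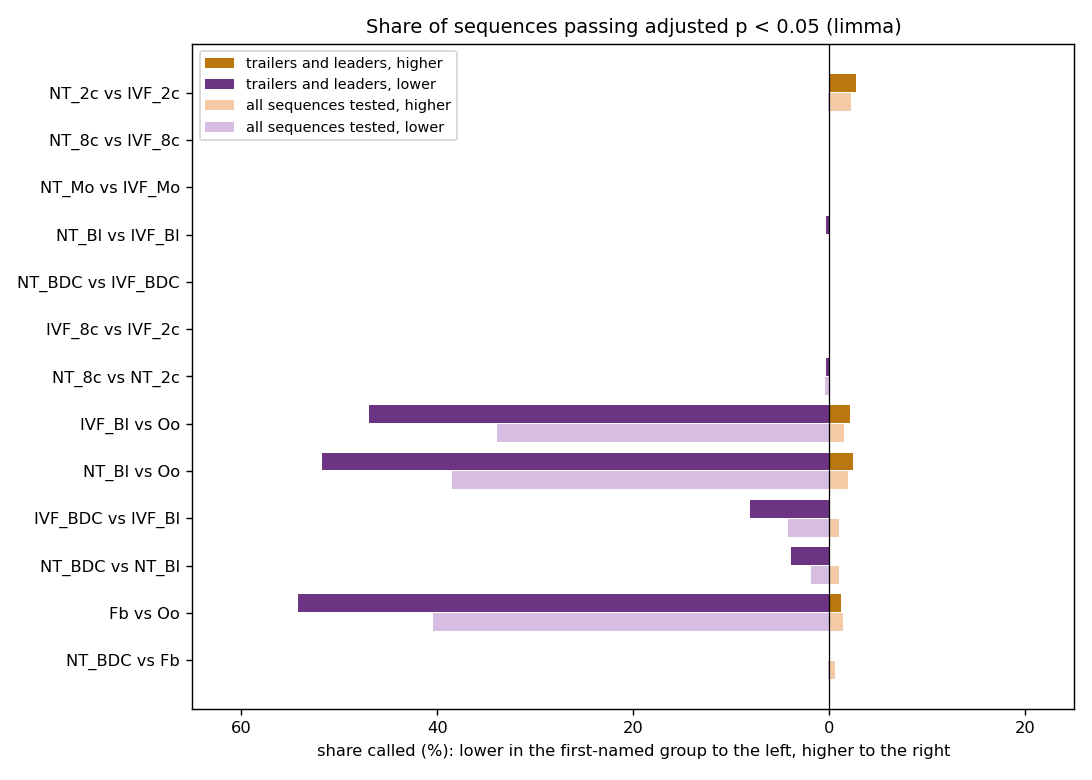
Share of sequences called by limma (%, adjusted p under 0.05) in each comparison, for the 334 tested trailers and leaders (dark) and for all 12039 tested sequences (light); bars to the right are higher and bars to the left lower in the first-named group. The long bars are the blastocyst and fibroblast comparisons with oocytes, where lower calls took 51.8%, 47.0% and 54.2% of trailers and leaders and 38.5%, 33.9% and 40.4% of all sequences (NT blastocysts, IVF blastocysts and fibroblasts).

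Trailer #4060 was the most abundant sequence of either type and the only one found in all 42 libraries. It had 15636, 7873, 5450 and 6008 normalised reads in NT blastocysts and 10682, 3448 and 5924 in IVF blastocysts, against 498, 157 and 204 in oocytes. Every blastocyst library lay above every oocyte library. The change was 4.95 ± 1.28 in NT (SE, limma, adjusted p = 0.00102) and 4.55 ± 1.37 in IVF blastocysts (adjusted p = 0.00607) on the log2 scale, or 30.5-fold and 23.3-fold in mean normalised reads. In CPM of listed reads, which do not use the size factors, the means differed 261-fold and 159-fold. Values of this order were already present in NT morulae, with 5798, 3038 and 5753 normalised reads, while NT 8-cell embryos had 39.0 to 483 and NT 2-cell embryos 20.0 to 267. IVF morulae ranged from 898 in replicate 2 to 31216 in replicate 3, with 19589 in replicate 1.

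The other 5 trailers of this kind followed the same course at lower levels. Trailer #3727 had 1584, 774, 764 and 871 normalised reads in NT blastocysts and 888, 293 and 642 in IVF blastocysts, against 95.6, 39.2 and 77.4 in oocytes. It was higher in NT blastocysts (3.74 ± 1.22, limma adjusted p = 0.00941) and missed the threshold in IVF blastocysts (2.96 ± 1.30, adjusted p = 0.0679). Trailer #225 had 110 to 244 normalised reads in NT and 97.3 to 346 in IVF blastocysts, against 10.1, 9.80 and 0 in oocytes, and was higher by 4.31 ± 0.98 and 4.54 ± 1.05 (limma adjusted p = 0.000201 and 0.000325). Its oocyte values stand on 4 reads. Trailers #3650, #3370 and #248 were higher by 3.34 to 4.09 in NT and by 3.37 to 3.99 in IVF blastocysts, and none of their blastocyst libraries overlapped with an oocyte library.

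As a share of listed reads, the 6 trailers together stood at 0.0191 ± 0.0107% in oocytes, 0.0120 ± 0.0175% in NT and 0.0377 ± 0.0506% in IVF 2-cell embryos, and 0.0393 ± 0.0404% in NT and 0.0393 ± 0.0303% in IVF 8-cell embryos. They reached 0.931 ± 0.265% in NT morulae, and then 4.39 ± 1.73% in NT and 2.65 ± 1.64% in IVF blastocysts. NT blastocyst-derived cells held 1.32 ± 0.33%, IVF blastocyst-derived cells 3.59 ± 3.04%, and the 3 fibroblast libraries 0.642%, 2.14% and 27.8%. Trailer #4060 alone made up 78.1% to 87.3% of the 6 in NT blastocysts, 81.5% to 85.9% in IVF blastocysts and 66.7% to 79.2% in oocytes. Between 2-cell and 8-cell stages the libraries overlap widely, and the step up lies between the 8-cell stage and the morula in NT embryos, where no library of the earlier stage reached the lowest of the later one.

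Trailer #2868 was the most abundant of the numbered trailers in oocytes. It had 29.2, 36.6, 20.3 and 12.4 normalised reads in NT blastocysts and 33.5, 50.4 and 23.2 in IVF blastocysts, against 2562, 4337 and 3098 in oocytes. The change was -6.86 ± 1.07 in NT (limma adjusted p = 3.06e-07) and -6.38 ± 1.15 in IVF blastocysts (adjusted p = 7.63e-06), or 135-fold and 93.4-fold lower in normalised reads and 15.6-fold and 13.5-fold lower in CPM of listed reads. Groups did not overlap on either scale. The trailer listed for #745, #748 and #573, nearly as abundant in oocytes, had 41.8 to 130 normalised reads in NT and 121 to 167 in IVF blastocysts, against 2104 to 3910 in oocytes (-5.14 ± 1.07 and -4.24 ± 1.14, limma adjusted p = 5.05e-05 and 0.00193).

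**Figure D5:**
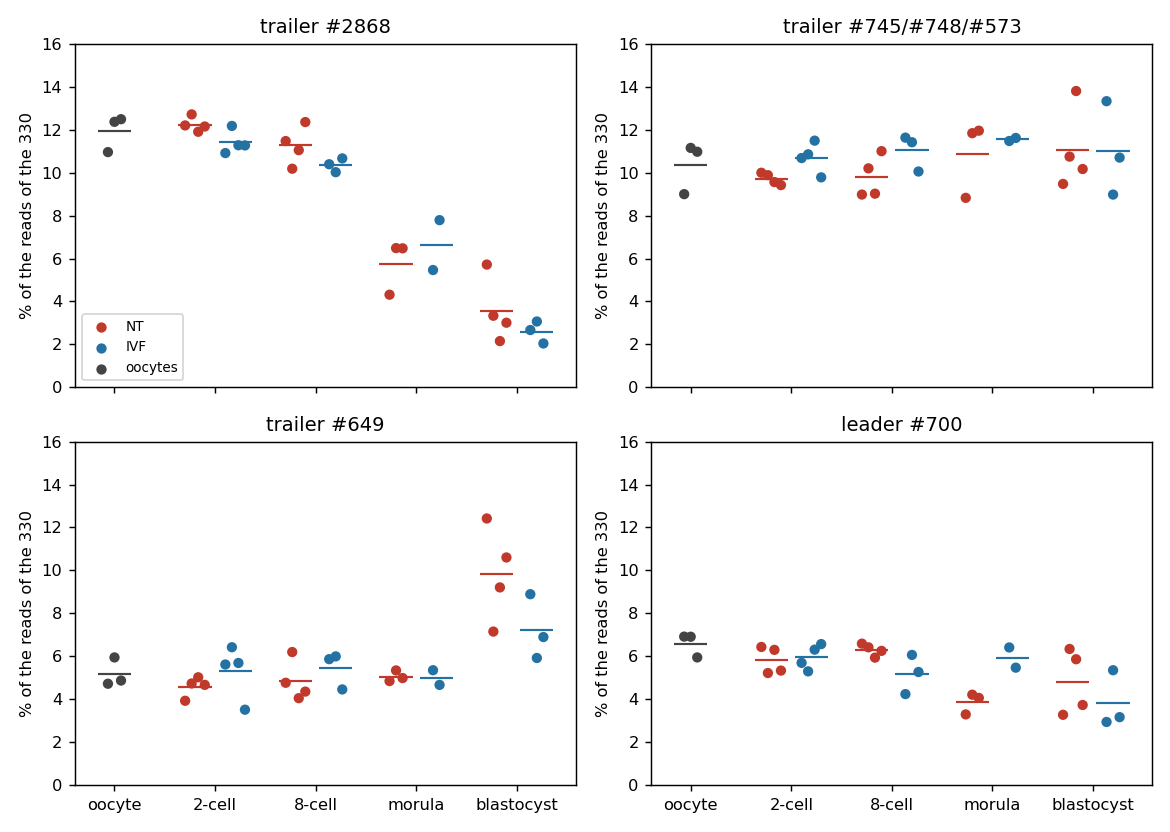
Share of the reads of the 330 numbered trailers and leaders (%) taken by 4 of them in each oocyte and embryo library (points) with group means (lines), without IVF morula replicates 1 and 3. Trailer #2868 stands between 10.0% and 12.7% through the 8-cell stage and between 2.04% and 5.72% in blastocysts, trailer #745/#748/#573 stays between 8.83% and 13.8%, trailer #649 is highest in NT blastocysts and leader #700 ranges from 2.93% to 6.91%.

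Although the 330 kept a steady sum against piRNAs in oocytes and embryos, their make-up shifted. Trailer #2868 took 12.2 ± 0.3% of their reads in NT and 11.4 ± 0.5% in IVF 2-cell embryos, 11.3 ± 0.9% in NT and 10.4 ± 0.3% in IVF 8-cell embryos, 5.76 ± 1.25% in NT morulae, 3.55 ± 1.53% in NT blastocysts and 2.59 ± 0.52% in IVF blastocysts, with 11.9 ± 0.9% in oocytes. Its morula and blastocyst libraries all lay below its earlier ones. Over the same span trailer #745/#748/#573 took 11.1 ± 1.9% in NT blastocysts and 11.0 ± 2.2% in IVF blastocysts, against 10.4 ± 1.2% in oocytes, which overlap. Trailer #649 took 9.84 ± 2.23% in NT and 7.23 ± 1.52% in IVF blastocysts, against 5.17 ± 0.67% in oocytes, and 1 of the IVF blastocyst libraries overlapped with oocytes. These shares use only reads of the 330 and so do not depend on the size factors, and they carry no test.

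Among the 38 numbered sequences with at least 100 reads over the oocyte libraries (77.6% of the reads of the 330 in oocytes), 7 had over 2 times that share in NT blastocysts and 11 had under 0.5 times. In IVF blastocysts 4 had over 2 times and 12 had under 0.5 times. Trailer #733 had 3.16 times its oocyte share in NT and 4.56 times in IVF blastocysts, and the trailer of #342, #748 and #669 had 4.19 and 3.73 times. Trailer #508 had 0.142 and 0.0762 times its oocyte share. Trailer #3458 and the trailer of #3705 and #2082 had no read in any blastocyst library, on 124 and 116 oocyte reads.

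Leaders, by annotation the 5′ ends cut by RNase P, made up a minority of these reads. They took 7.32 ± 1.18% of the reads of the 330 in NT blastocysts and 8.50 ± 2.21% in IVF blastocysts, against 11.3 ± 1.5% in oocytes, and 1 IVF blastocyst library overlapped with oocytes. Leader #700 was the most abundant, with 16.7, 69.5, 55.3 and 15.3 normalised reads in NT blastocysts and 36.8, 87.9 and 35.8 in IVF blastocysts, against 1616, 2421 and 1473 in oocytes. It was lower by limma in NT (-5.59 ± 1.05, adjusted p = 1.02e-05) and in IVF blastocysts (-5.05 ± 1.13, adjusted p = 0.000201). Leader #458 had no read in the 3 IVF blastocyst libraries and 1.67, 2.63, 0 and 0 normalised reads in NT blastocysts, against 272, 211 and 134 in oocytes. It was at least 75.4-fold lower in IVF blastocysts, taking a floor of 3 reads per library (limma adjusted p = 6.31e-09). Leader #3696 had 1.67 to 8.46 normalised reads in NT and 23.4 to 27.0 in IVF blastocysts, against 87.9 to 166 in oocytes. Its call held in NT (-3.67 ± 0.83, adjusted p = 0.000183, limma) and just missed in IVF blastocysts (-2.12 ± 0.89, adjusted p = 0.0536).

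Of the 7 gene numbers with both a leader and a trailer, #493 and #3664 are given here, chosen after their values were seen. For #3664 the summed reads were 30 leader and 5 trailer reads in NT blastocysts, 35 and 6 in IVF blastocysts and 164 and 48 in oocytes. For #493 they were 13 leader and 64 trailer reads in NT blastocysts, 13 and 63 in IVF blastocysts and 152 and 200 in oocytes. The leader thus outnumbered the trailer for #3664 and the trailer outnumbered the leader for #493, in blastocysts and oocytes alike. For #957 the order turned round, with 78 leader and 27 trailer reads in NT blastocysts, 55 and 11 in IVF blastocysts and 99 and 211 in oocytes. Its leader reads are of sequences whose first match is a trailer of another number. Several trailer sequences name these numbers together with others, so the sums share reads with other genes, and the ratios were not tested.

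The 2 sequences with Ensembl gene names, for which no gene name is given here, were scarce and absent from oocytes. The leader of ENSBTAG00000043548 had 33.4, 35.6, 26.0 and 27.1 normalised reads in NT blastocysts and 37.9, 25.8 and 28.4 in IVF blastocysts, against 0 in 3 of 3 oocyte libraries. It was higher by limma in both (3.77 ± 0.76, adjusted p = 3.44e-05, and 3.77 ± 0.82, adjusted p = 0.000135). It was also found in 3 of 3 libraries of NT and 3 of 4 of IVF blastocyst-derived cells, at 6.63 to 16.6 normalised reads where found. The trailer of ENSBTAG00000043582 had 3.62 to 11.3 normalised reads in NT blastocysts and 0 in oocytes (2.08 ± 0.51, limma adjusted p = 0.000553), with 49 reads in all 4 NT libraries together. In IVF blastocysts it had 3.35, 0 and 4.81 and was not called (1.14 ± 0.55, adjusted p = 0.102).

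Blastocyst-derived cells were then compared with blastocysts of the same kind (NT or IVF), without pairing of libraries. In NT, 13 trailers and leaders were lower and none higher, against 1.88% lower and 0.988% higher of all sequences tested (2.87% in either direction). In IVF, 27 were lower and none higher, against 4.24% lower and 0.93% higher of all (5.17%). With only the compared groups in the fit the counts were 57 in NT and 54 in IVF. Those fits keep the derived cells, in which most trailers and leaders have no spread, so their counts are not safer ones. With centring, CPM and voom the counts were 4, 47 and 119 in NT and 19, 64 and 328 in IVF, all lower. The shares of all sequences called under these settings are not given here. The NT count was 6 and 5 without NT blastocyst replicates 2 and 3, and 2, 4 and 2 without NT derived-cell replicates 1, 3 and 4; the IVF count was 16 and 14 without IVF blastocyst replicates 2 and 3. The trailer of #745, #748 and #573 had 0 reads in all 7 libraries of derived cells, against 48.4, 118, 130 and 41.8 normalised reads in NT blastocysts and 167, 148 and 121 in IVF blastocysts. With a floor of 3 reads per library it was at least 102-fold lower in NT (limma adjusted p = 0.0014) and at least 230-fold lower in IVF derived cells (adjusted p = 0.000119). Trailer #649 was at least 81.8-fold lower in NT and at least 151-fold lower in IVF derived cells. The 6 trailers were chosen for having reads in every cultured library, the derived cells among them, so their presence here restates that choice. No change of the 6 passed, and these values are a description. Trailer #4060 had 3296, 3111 and 2782 normalised reads in NT derived cells, and the change from NT blastocysts was -1.38 ± 1.28 (limma adjusted p = 1). In IVF derived cells it had 7455, 13791, 4759 and 3357 and a change of 0.08 ± 1.28 (adjusted p = 1). The difference between these steps in NT and IVF gave 0 calls among trailers and leaders and 0% among all sequences. At an unadjusted p under 0.05 (limma) were 1 of 334 trailers and leaders and 37 of 12039 sequences.

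Fibroblasts, set against the same oocyte libraries, had 4 trailers higher and 181 trailers and leaders lower, against 1.36% and 40.4% of all sequences tested. With centring, 6 were higher and 97 lower. Since the split into patterns used the fibroblasts, these counts restate it. Trailer #4060 had 2143, 78312 and 3739 normalised reads in fibroblasts, against 498, 157 and 204 in oocytes. The groups did not overlap, but replicate 3 was more than 20 times the others, and without it the change was 3.46 (limma adjusted p = 0.0524) in place of 5.06 ± 1.37 (adjusted p = 0.00156). Trailer #3370 had 110, 396 and 231 normalised reads in fibroblasts, against 0, 14.7 and 7.03 in oocytes, and trailer #248 had 174, 151 and 74.7, against 10.1, 0 and 7.03. Trailer #3650 had 2.91, 212 and 21.6 in fibroblasts, against 15.1, 14.7 and 7.03 in oocytes, and its groups overlapped (1.06 ± 1.14, adjusted p = 0.507, limma). Trailer #2868 had 2 reads in 1 of 3 fibroblast libraries, and leader #700 had none. NT blastocyst-derived cells gave no call against the donor fibroblasts by limma in any trailer or leader, where 0.565% of all sequences were higher and 0.108% lower (0.673% in either direction). An unadjusted p under 0.05 was reached by 1 of 334 trailers and leaders and by 344 of 12039 sequences. Most of the 334 had no read in either group and could not be called: 320 had no spread in fibroblasts and 322 in NT derived cells. The lack of calls thus says little about likeness to the donor cells.

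NT and IVF embryos were compared at each stage. At the 2-cell stage 9 trailers were higher and none lower in NT, 2.69% of those tested, against 2.28% of all sequences tested, so the share was near the background. Every listed sequence has reads in NT 2-cell replicate 4, so the listing itself favours higher calls in NT here. Without that library 6 were higher and 1 lower. Their levels were low. Trailer #1066 had 60.8, 46.8, 13.8 and 45.5 normalised reads in NT and 0, 22.7, 2.93 and 0 in IVF 2-cell embryos (2.81 ± 0.70, limma adjusted p = 0.0157), which overlap. Trailer #2999 had 38.7, 20.0, 8.6 and 13.2 in NT and 5.85 in 1 of 4 IVF libraries, without overlap (2.63 ± 0.65, adjusted p = 0.0137). Trailer #3611/#449 had 44.3, 40.1, 6.88 and 13.2 in NT and 15.1 in 1 of 4 IVF libraries, which overlap (2.60 ± 0.61, adjusted p = 0.00886). None of the 9 was called when only the compared groups were in the fit, and the count was 30 without NT 2-cell replicate 3 and 15 without IVF 2-cell replicate 1.

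At the 8-cell stage no trailer or leader was called between NT and IVF by limma, against 0.00831% of all sequences, with 1 call without NT 8-cell replicate 1. An unadjusted p under 0.05 was reached by 20 of 334 trailers and leaders and by 972 of 12039 sequences. In morulae none was called, against 0% of all, with 60 of 334 at an unadjusted p under 0.05 (limma), against 1223 of 12039 sequences. The morula result rests on the IVF libraries: without IVF morula replicate 2 or 4 the count was 39 and 38, all higher in NT, and with only replicates 2 and 4 as IVF morulae it was 0. The shares of all sequences called in these fits are not given here. Trailer #2868 had 330, 253 and 521 normalised reads in NT morulae and 581 and 689 in IVF morula replicates 2 and 4, with 0 in replicates 1 and 3.

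In blastocysts 1 trailer, #4030, differed between NT and IVF, and it was the only call among all sequences tested (0.00831%). It had 0 reads in all 4 NT blastocyst libraries and 23.4, 39.8 and 120 normalised reads in IVF blastocysts (21, 34 and 275 reads). Against oocytes, where it had no read in 3 of 3 libraries, it was higher in IVF blastocysts (4.39 ± 0.84, limma adjusted p = 2.01e-05). With a floor of 3 reads per library it was at least 35.2-fold lower in NT than in IVF blastocysts (-4.39 ± 0.78 on the log2 scale, limma adjusted p = 0.00355). Without IVF blastocyst replicate 4 the adjusted p was 0.598, and after centring it was 0.167. The trailer was also found in 2 of 3 NT morula libraries (9 and 14 reads) and in 3 of 4 IVF morula libraries (305, 5 and 19 reads), and in no oocyte or blastocyst-derived cell library. The 305 reads are of IVF morula replicate 1, which was set apart above. Fibroblast replicate 3 had 9 reads, IVF 8-cell replicate 4 had 8 and NT 8-cell replicate 4 had 11. IVF 2-cell replicates 3 and 4 and NT 2-cell replicate 4 had 3 reads each. Between blastocyst-derived cells of NT and IVF none was called, against 0% of all, with 1 of 334 at an unadjusted p under 0.05 (limma), against 33 of 12039 sequences. Most of the 334 had no read in either group and could not be called: 322 had no spread in NT and 326 in IVF derived cells.

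Between the 8-cell and 2-cell stages few calls were made. In IVF no trailer or leader was called by limma, against 0.0498% higher and 0.0665% lower of all sequences (0.116%). An unadjusted p under 0.05 was reached by 35 of 334 trailers and leaders and by 1346 of 12039 sequences. In NT trailer #3269 was called lower by limma and none higher, against 0.465% lower and 0.0332% higher of all sequences (0.498%). It had 0 reads in 4 of 4 NT 8-cell libraries and 2, 0, 2 and 9 reads in NT 2-cell libraries, which is at the floor of 3 reads, and the call was lost in the fit of only the compared groups. The NT count was 8 without NT 2-cell replicate 3, 3 or 4 without any other NT 2-cell replicate, 4 without NT 8-cell replicate 1, and 0 without NT 8-cell replicate 2, 3 or 4. The IVF count was 2 without IVF 2-cell replicate 3. The difference between these steps in NT and IVF gave no call among trailers and leaders, against 0.0581% of all sequences, and it gave 1 without NT 2-cell replicate 1, 2 or 3 or NT 8-cell replicate 1. For this difference 28 of 334 trailers and leaders had an unadjusted p under 0.05 (limma), against 1039 of 12039 sequences.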

How the data were processed

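Small RNA libraries from 42 samples in 12 groups were used, with 0 columns left out. The authors deposited variance-stabilised log2 values, made with DESeq2 after trimming with Trim Galore and with builds bosTau8 and UMD3.1, per the submitters' processing notes. The aligner, the annotation tool and all versions were not given in these sources. Base sequences and a genome were not used here.

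The deposited log2 scale was inverted to normalised reads. Above the lowest value, 100% of 188126 values were whole reads within 0.01 reads, taking the smallest value of each library as 2 reads, so the absolute number of reads rests on that choice. Depth per library is the sum of listed reads (25119 to 3081186), not the whole library, and floors of 3 reads cover counting error only. Tested were the 12039 sequences that exceeded the floor of the scale by over 1 log2 unit in 3 or more libraries, with limma 3.58.1 in R 4.3.3: 1 model over 12 groups, eBayes with intensity trend, Benjamini-Hochberg at 0.05, no minimum fold change. Groups in which a sequence has no reads have no spread, and this lowers the shared spread: 320 of 334 trailers and leaders had no spread in fibroblasts, against 0 in NT 2-cell embryos. When tested on simulated data, this model made false calls between groups where the sequences were present, so the counts from fits of only the compared groups are printed too. Such fits are no safeguard where a compared group is itself nearly empty. In derived cells 322 (NT) and 326 (IVF) of the 334 had no spread. Tables used Python 3.11.15, pandas 2.3.3 and matplotlib 3.10.9.

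The trailers and leaders, the lists and the tests were chosen with earlier results of these data known. Named are the 5 trailers and 5 leaders with the highest mean normalised reads, up to 3 called in each direction per comparison, the highest of each type per group, and, chosen after their values were seen, the 6 trailers of cultured cells, sequences with Ensembl names and extremes of make-up. A list of fragments of the same tRNA isoacceptor could not be formed, because gene numbers were not matched to isoacceptors. Shared replicate numbers did not pair libraries: correlations of deviations ranged from -0.14 to 0.466, and in no comparison were all above 0.1. Alternatives were no filter, median centring, only the compared groups, no trend, voom on recovered reads, the replicate block, leaving out each library and another denominator. Added after seeing the data were log2 of CPM of listed reads plus 1, IVF morulae reduced to replicates 2 and 4, and reads per 100 piRNA reads.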

Additional observations from a re-analysis of the deposited data

Results flagged for a closer look

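In groups of 4 libraries, the highest or lowest library was compared with the nearest other by Dixon's test at the 95% level, and 18 of 144 values stood apart. In 10 of the 18 the other 3 libraries had no read, so any read at all would stand apart. The remaining 8 had reads in at least 1 other library. The rate of about 1 in 20 flagged by chance applies to all 144 values tested and not to these 8. Among the 8, trailer #4060 in NT 2-cell replicate 3 is counted both in normalised reads and in percent of listed reads.

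Among NT 2-cell libraries, replicate 3 was high for trailer #4060 (267 normalised reads, and 0.0268% of listed reads) and for trailer #3650 (34.4 normalised reads). Replicate 4, the library in which every listed sequence was found, was the only one with reads of trailer #4030 (3.59 normalised reads), trailer #3370 (4.79) and the trailer of ENSBTAG00000043582 (5.98). Among IVF 2-cell libraries, replicate 2 was high for trailer #1066 (22.7 normalised reads) and trailer #3611/#449 (15.1), replicate 3 for trailer #2999 (5.85), and replicate 1 was low for trailer #225 (0 normalised reads). In NT 8-cell embryos replicate 4 alone had trailer #4030 (10.5 normalised reads).

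Among IVF morulae, replicate 1 stood apart with 27.5 reads of the 330 numbered trailers and leaders per 100 piRNA reads, replicate 2 alone had trailer #2999 (8.36 normalised reads) and replicate 4 alone had trailer #3269 (5.07). Among NT blastocysts, replicate 1 was high for trailer #3727 (1584 normalised reads), replicate 2 alone had trailer #460 (1.32) and replicate 3 was high for a trailer of #733 that also matches a predicted transcript (50.8). Among IVF blastocyst-derived cells, replicate 3 alone had the trailer of ENSBTAG00000043582 (0.58 normalised reads).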

How the results depend on the processing

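Of 398 alternative values for 29 named results, 369 kept direction and call, 29 kept direction and lost the call, and 0 turned round. Counts of trailers and leaders called moved more, and they are given without the share of all sequences called in the same setting. With centring they were 0 at 2 cells, 0 between blastocysts, 5 for NT 8-cell against 2-cell embryos, 108 (NT) and 48 (IVF) for blastocysts against oocytes, 4 for NT derived cells against blastocysts and 103 for fibroblasts against oocytes. With voom, where a 0 takes a value that falls with library size, they were 0 at 2 cells, 0 for NT 8-cell against 2-cell embryos, 74 (NT) and 44 (IVF) for blastocysts against oocytes, 119 (NT) and 328 (IVF) for derived cells, 1 for NT derived cells against fibroblasts and 1 for the difference of the derived-cell steps. With only the compared groups they were 0 at 2 cells, 0 for NT 8-cell against 2-cell embryos, 57 (NT) and 54 (IVF) for derived cells, 1 for NT derived cells against fibroblasts and 1 for the difference of the derived-cell steps. With CPM they were 1 at 2 cells, 17 for morulae, 0 for NT 8-cell against 2-cell embryos, 114 (NT) and 88 (IVF) for blastocysts, 47 (NT) and 64 (IVF) for derived cells and 1 for NT derived cells against fibroblasts. Without the trend they were 0 between blastocysts, and 0 (NT) and 2 (IVF) for 8-cell against 2-cell embryos. The cause of these moves was not tested. Under the replicate block the count for NT derived cells was 8 in place of 13, and the block moved no other count by over 1.5 times. Leaving out 1 library gave 7 to 30 at 2 cells, 0 to 1 at 8 cells, 0 to 39 in morulae, 0 to 1 between blastocysts, 0 to 8 (NT) and 0 to 2 (IVF) for 8-cell against 2-cell embryos, 0 to 1 for their difference, 2 to 11 (NT) and 14 to 21 (IVF) for derived cells, and 165 to 182 (NT blastocysts), 143 to 164 (IVF blastocysts) and 163 to 182 (fibroblasts) against oocytes. As a share of tRNA-derived reads instead of all listed reads, trailers and leaders took 33.4% in oocytes, 28.3% and 22.5% in NT and IVF 2-cell embryos, 17.7% and 6.39% in 8-cell embryos, 11.2% and 19.4% in morulae, 10.3% and 7.74% in blastocysts, and 7.17% and 14.4% in derived cells. Depth limits the low sequences: many oocyte and 2-cell values rest on fewer than 10 reads.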
